A study of Mus musculus with 8 samples.

Results

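The 8 genes described here encode receptors of ER-phagy, the selective autophagy of the endoplasmic reticulum (ER). They are *Fam134a*, *Fam134b* and *Fam134c* (current symbols *Retreg2*, *Retreg1* and *Retreg3*), *Rtn3*, *Atl3*, *Sec62*, *Ccpg1* and *Tex264*. They were picked by name, and each was found on 1 of the 22206 probe sets in the array table, which name 21981 different symbols or sets of symbols. Total RNA was measured on Clariom S Mouse arrays, from gastrocnemius (GAS) muscle of male C57/Bl6j mice, injected at about 10 weeks of age and killed 3 months later, at 22 weeks. In the MYTHO-KD group (4 arrays) the muscle had received AAV sh-RNA MYTHO, an adeno-associated virus (AAV) of serotype 1 in which the U6 promoter drives a short hairpin RNA against *Mytho*. In the scramble group (4 arrays) the opposite leg had received AAV sh-RNA scrmb, with a scrambled hairpin under the same promoter, so both groups carry virus and no muscle free of virus is compared. U6 is active in any cell type that the virus enters, and serotype 1 has a tropism for muscle cells.

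The deposited table gives, for each probe set, the average of either group on the log2 scale and its standard deviation (SD), so the values of single muscles cannot be shown and legs could not be paired by mouse. *Mytho* itself, listed as *D230025D16Rik*, had an authors' average of 7.71 in MYTHO-KD and 10.02 in scramble, or 20.2% of the scramble signal (limma's moderated test, adjusted p = 0.0138). The 9 muscle fibre markers had group averages of 17.58 or more, and 2 of them sat at the top of the scale, 19.93, in either group. Averages over the whole table ran from 3.18 to 19.93, the median SD was 0.27 in each group, and the median difference between the groups was -0.01. With 4 arrays a group, that number limits the precision of the values below.

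ER-phagy delivers pieces of ER to the lysosome. A receptor sits in the ER membrane, gathers or bends the piece to be removed, and binds ATG8 proteins (the LC3 and GABARAP families) on the growing autophagosome through a short motif. In muscle most of the ER is specialised as sarcoplasmic reticulum, which stores and releases calcium. MYTHO is the autophagy gene the study is about, and the comparison below asks how the transcripts of the ER-phagy receptors stood in muscle 3 months after its knockdown was started.

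Of the 8 receptor genes, 3 differed between MYTHO-KD and scramble muscles at an unadjusted p under 0.05 (limma, moderated test), and they did not go the same way. *Rtn3* and *Fam134a* were higher, by 0.56 and 0.45 on the log2 scale, while *Fam134b* was lower, with a difference of -0.59. Across all probe sets 12.0% passed this threshold, 6.48% as higher and 5.52% as lower. No receptor passed the threshold used in the study's methods, 2-fold with an unadjusted p under 0.05, which 1.12% of all probe sets passed. At 1.5-fold in its place *Fam134b* alone was called, against 5.80% of all probe sets, and with the least favourable rounding its difference (-0.58) was under that limit. No receptor had an adjusted p under 0.05 either, against 0.275% of all probe sets, and the adjusted p of the 8 genes ran from 0.283 to 0.963. The differences of 4 receptors were above 0 and those of 4 below, with a median of -0.06. The median size of the difference, whatever its sign, was 0.31, against 0.18 over all probe sets.

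**Figure D1:**
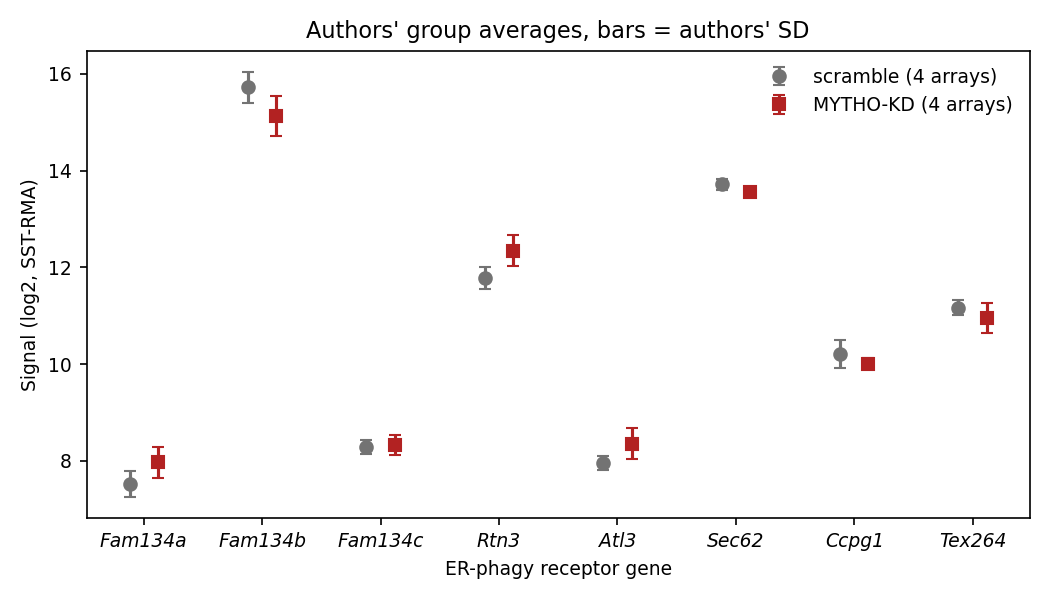
Signal on the log2 scale (y axis) of the 8 ER-phagy receptor genes (x axis) as the authors' average of each group, with the authors' SD as bars; grey circles are scramble, red squares MYTHO-KD, 4 arrays each. The bars of the groups are clear of each other for *Rtn3* and overlap for the other 7 genes; heights are not comparable between genes, since each probe set has its own sensitivity.

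*Fam134b* encodes a reticulon-type protein that bends ER sheets and is the receptor best known for their turnover; its loss in humans causes a sensory neuropathy. Its probe set lies on chromosome 15 from 25843264 to 25973696 (mm10, plus strand). The authors' average was 15.72 in scramble and 15.13 in MYTHO-KD, with SDs of 0.32 and 0.42. The MYTHO-KD muscles were thus at 66.4% of the scramble signal (95% interval 46.6 to 94.8%; log2 difference -0.59, standard error 0.235, adjusted p = 0.344). Taken as average ± SD, the groups overlapped by 0.15 on the log2 scale. The difference did not pass the unadjusted threshold when the variance was not moderated or was taken as unequal in the groups.

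*Fam134a* and *Fam134c* are the paralogs of *Fam134b* and share its reticulon-type membrane domain. *Fam134a*, on chromosome 1 from 75142786 to 75147909 (plus strand), averaged 7.52 in scramble and 7.97 in MYTHO-KD with SDs of 0.26 and 0.32. Its log2 difference of 0.45 (95% interval 0.01 to 0.89, standard error 0.204, adjusted p = 0.411) was just past the unadjusted threshold and of opposite sign to that of *Fam134b*. The rounding of the table to 2 decimals is enough to move it, since it no longer passed with the least favourable rounding. *Fam134c*, on chromosome 11 from 101096322 to 101119893 (minus strand), averaged 8.29 and 8.33, with SDs of 0.14 and 0.21, so that the groups lay well within each other's SD. Its difference was 0.04 with a 95% interval of -0.32 to 0.40 (adjusted p = 0.963), which leaves room for a change of up to about 1.32-fold. Whether these 3 differences differ from one another was not tested, because that needs the values of single arrays.

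*Rtn3* encodes a reticulon that takes part in the turnover of ER tubules. It lies on chromosome 19 from 7425895 to 7483291 (minus strand). Its average was 11.78 in scramble and 12.34 in MYTHO-KD, with SDs of 0.22 and 0.32, and this was the only receptor for which average ± SD of the groups did not overlap, the gap being 0.02. The MYTHO-KD signal was 1.47-fold that of scramble (95% interval 1.09 to 1.99; standard error 0.197, adjusted p = 0.283). *Rtn3* passed the unadjusted threshold under each of the 7 settings of the test, the only receptor to do so. *Atl3* encodes atlastin 3, a GTPase that fuses ER tubules and binds GABARAP proteins. It averaged 7.95 in scramble and 8.35 in MYTHO-KD, with SDs of 0.15 and 0.32, on chromosome 19 from 7494040 to 7538609 (plus strand). Its difference of 0.40 (95% interval -0.01 to 0.81, standard error 0.189, adjusted p = 0.43) did not pass.

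The other 3 receptors are not known as shapers of the ER and none of them passed the unadjusted threshold. *Sec62*, a partner of the SEC61 translocation channel that also serves in removal of excess ER after stress, had the tightest values of the 8 genes. It averaged 13.72 in scramble and 13.56 in MYTHO-KD with SDs of 0.11 and 0.08 (chromosome 3 from 30792876 to 30821263). The difference was -0.16, with a 95% interval of -0.49 to 0.17 (adjusted p = 0.741). *Ccpg1* encodes a receptor that is itself induced by ER stress and also binds FIP200, a subunit of the complex that starts autophagosomes. It averaged 10.20 and 10.01 with SDs of 0.29 and 0.12, on chromosome 9 from 72985429 to 73016341, a difference of -0.19 (95% interval -0.58 to 0.20, adjusted p = 0.745). *Tex264*, a single-pass membrane receptor with broad use in starvation-induced ER-phagy, averaged 11.17 and 10.95 with SDs of 0.15 and 0.31, on the same chromosome from 106658746 to 106685952. Its difference was -0.22 (95% interval -0.63 to 0.19, adjusted p = 0.711). For these 3 genes a difference of 0.33 to 0.41 on the log2 scale was the smallest that could have passed in the moderated test. Without moderation the limit depends on each gene's own SDs, which are small for *Sec62*, and none of the 3 genes passed there either.

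**Figure D2:**
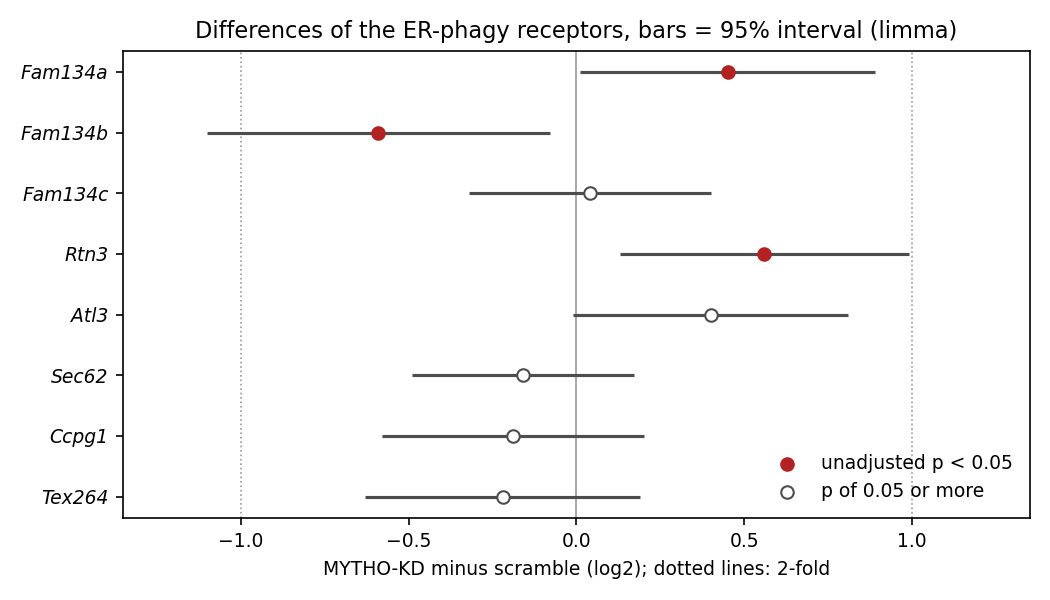
MYTHO-KD minus scramble on the log2 scale (x axis) for each receptor gene (y axis), with 95% intervals from limma's moderated test as bars; filled points have an unadjusted p under 0.05, and dotted lines mark 2-fold. The interval of *Rtn3* lies above 0 and that of *Fam134b* below it. That of *Fam134a* lies above 0 only barely, with a lower end of 0.01. No point lies beyond 2-fold.

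The spread between muscles was larger in MYTHO-KD than in scramble for 6 of the 8 receptors, with *Sec62* and *Ccpg1* as the exceptions. The median SD of the receptors was 0.315 in MYTHO-KD and 0.185 in scramble. Over all probe sets 48.1% had the larger SD in MYTHO-KD.

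**Figure D3:**
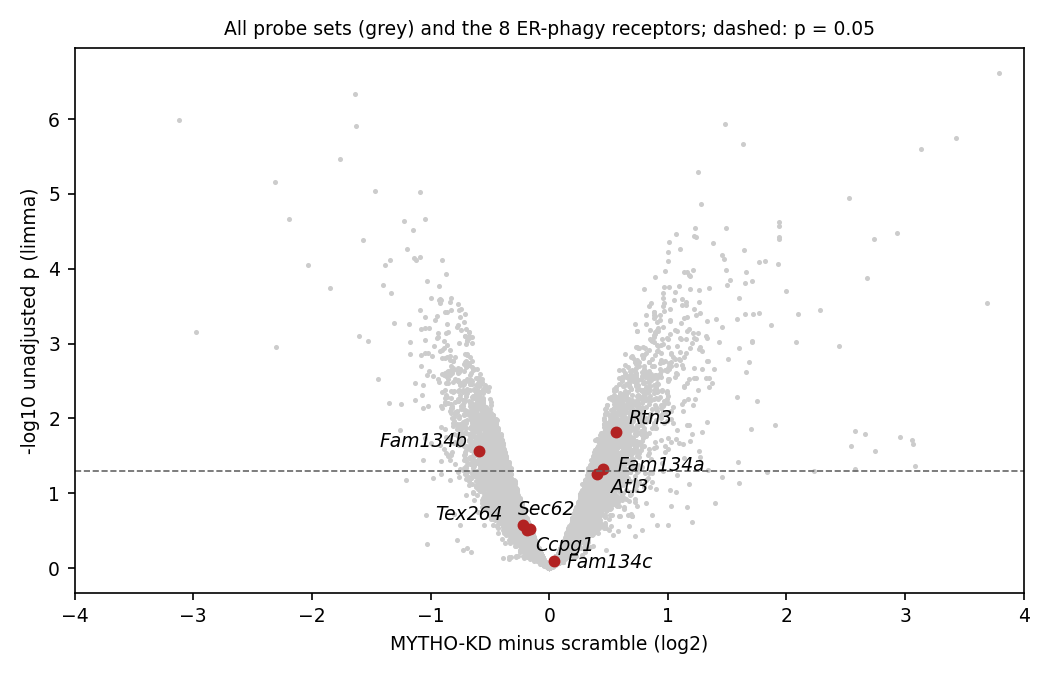
Each grey point is 1 of the 22206 probe sets, placed by MYTHO-KD minus scramble (log2, x axis) and by -log10 of the unadjusted p of limma's moderated test (y axis, so higher is a smaller p); the 8 receptor genes are in red and the dashed line marks an unadjusted p of 0.05. *Rtn3*, *Fam134b* and *Fam134a* lie above the line and the other 5 receptors below it.

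The arrays measure whole muscle, so fewer cells of a type and less RNA per cell cannot be told apart. Markers of other cell types moved in the same arrays. Across all probe sets 6.48% passed the unadjusted threshold as higher and 5.52% as lower. All 9 macrophage markers had a higher average in MYTHO-KD, with differences from 0.37 to 2.53, and 6 passed the unadjusted threshold, led by *Cd68*, *Lyz2*, *C1qb* and *Csf1r*. Their summed level was 10.96 in scramble and 12.24 in MYTHO-KD (log2 of the summed signals). Such sums add probe sets of unlike sensitivity, so bright ones weigh most. Of 8 fibroblast markers 4 passed, all as higher (*Bgn*, *Lum*, *Col3a1* and *Fbn1*). The summed level was 16.67 in scramble and 17.05 in MYTHO-KD. Most of that sum is *Dcn*, which averaged 16.58 and 16.86 and did not pass. Of 5 endothelial markers 2 passed, *Kdr* and *Eng*, and the summed level went from 13.86 to 14.37. None of the 5 Schwann cell markers passed (largest difference that of *Mbp*, -0.42), nor did any of 5 adipocyte markers (largest that of *Cfd*, -0.78). Their summed levels were 9.52 in scramble and 9.29 in MYTHO-KD for Schwann cells, and 14.42 and 14.45 for adipocytes, where *Fabp4* makes up most of the sum and the other 4 markers had lower averages in MYTHO-KD (-0.26 to -0.78). Of 9 muscle fibre markers only *Myh1* passed, with a difference of 0.59. Their summed level, 22.45 in scramble and 22.46 in MYTHO-KD, is set by signals at or near the top of the scale and cannot show whether fibre content differed. No marker was listed at 0. The part of these shifts in the values of the receptors was not tested.

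The receptors bind ATG8 proteins. Of the 5 ATG8 genes, 4 had a difference above 0 and 1 below. *Map1lc3a* and *Gabarapl2* were higher at an unadjusted p under 0.05 and *Map1lc3b* was lower. Across all probe sets 6.48% were higher and 5.52% lower. *Map1lc3a*, which encodes LC3A, averaged 11.12 in scramble and 12.28 in MYTHO-KD with SDs of 0.50 and 0.23. That is a 2.23-fold higher signal (log2 difference 1.16, standard error 0.241, adjusted p = 0.0771, and from 0.0299 with trend and robust fitting to 0.452 with unequal variances over the alternatives), the only one of the 90 genes in 8 lists of related genes to pass 2-fold with an unadjusted p under 0.05. *Map1lc3b*, which encodes LC3B, the form most used to follow autophagosomes, went from 12.66 to 12.25 (difference -0.41, adjusted p = 0.414). *Gabarapl2* went from 9.29 to 9.71 (difference 0.42, adjusted p = 0.396). *Map1lc3b* did not pass the unadjusted threshold without moderation, and neither *Map1lc3b* nor *Gabarapl2* did with unequal variances or with the least favourable rounding. The median difference of the 5 genes was 0.42.

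The other proteins that shape the ER membrane include the paralogs of the receptors. Of these 15 genes 2 were higher and 1 was lower at an unadjusted p under 0.05, against 6.48% and 5.52% of all probe sets. Their median difference was 0.01. *Reep6*, one of a family of proteins that curve ER tubules, averaged 8.76 in scramble and 9.56 in MYTHO-KD (difference 0.80, standard error 0.211, adjusted p = 0.153). Its relative *Reep3* differed by 0.55 (adjusted p = 0.383). *Lnpk*, whose product stabilises the junctions between tubules, was the lower one, with a difference of -0.39 (adjusted p = 0.336). The other reticulons and atlastins are named here for completeness, after their values were seen. Their differences ran from -0.28 for *Atl1*, whose probe set also names *Gm3086*, to 0.11 for *Rtn1*, and *Rtn2*, *Rtn4* and *Atl2* lay between them. None of these 5 genes passed.

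Genes that start the autophagosome showed little. None of the 11 passed the unadjusted threshold, against 12.0% of all probe sets. Their differences lay between -0.25, for *Becn1*, and 0.06. None of the 9 genes of UFMylation passed either. This pathway attaches the small protein UFM1 to ER proteins and is needed for ER-phagy in cultured cells, and its largest difference was the -0.39 of *Odr4* (adjusted p = 0.451). Of the 11 adaptors and regulators of ER-phagy only *Canx* passed. It encodes calnexin, an ER chaperone that works with FAM134B as co-receptor for misfolded procollagen, and it averaged 10.80 in scramble and 11.58 in MYTHO-KD with SDs of 0.43 and 0.46 (difference 0.78, standard error 0.265, adjusted p = 0.263).

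Of the 18 ER chaperone and stress genes of the unfolded protein response, 5 were higher at an unadjusted p under 0.05. None was lower. Across all probe sets 6.48% were higher and 5.52% lower at this threshold. Of the 18 differences, 15 were above 0 (median 0.275). The largest were those of *Hyou1*, an ER chaperone (0.62), *Edem1*, which directs misfolded glycoproteins to degradation (0.56), *Pdia4*, a disulfide isomerase (0.55), and *Dnajc3*, a co-chaperone of BiP (0.51). The fifth, *Manf*, differed by 0.47 on a probe set that also names *Rbm15b*. The adjusted p of these 5 genes ran from 0.246 to 0.38, and the probe set of *Pdia4* also names the microRNA gene *Mir704*. Named after their values were seen, *Hspa5* (0.30), *Ddit3* (0.25) and *Xbp1* (0.14) did not pass. The 3 differences below 0 were those of *Atf4* (-0.24), *Trib3* (-0.16) and *Herpud1* (-0.04). Around *Sec62*, 2 of the 10 translocon genes passed. *Tram1*, which assists the entry of chains into the membrane, was higher (0.49, adjusted p = 0.381) and *Sec61a2*, a channel subunit, was lower (-0.40, adjusted p = 0.339). The 8 lists together hold 90 genes, 11 of them of the sarcoplasmic reticulum. Of the 90, 11 were higher and 5 lower at an unadjusted p under 0.05, against 6.48% and 5.52% of all probe sets. None of the 90 had an adjusted p under 0.05, against 0.275% of all probe sets. With trend and robust fitting *Map1lc3a* had one, as given above.

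**Figure D4:**
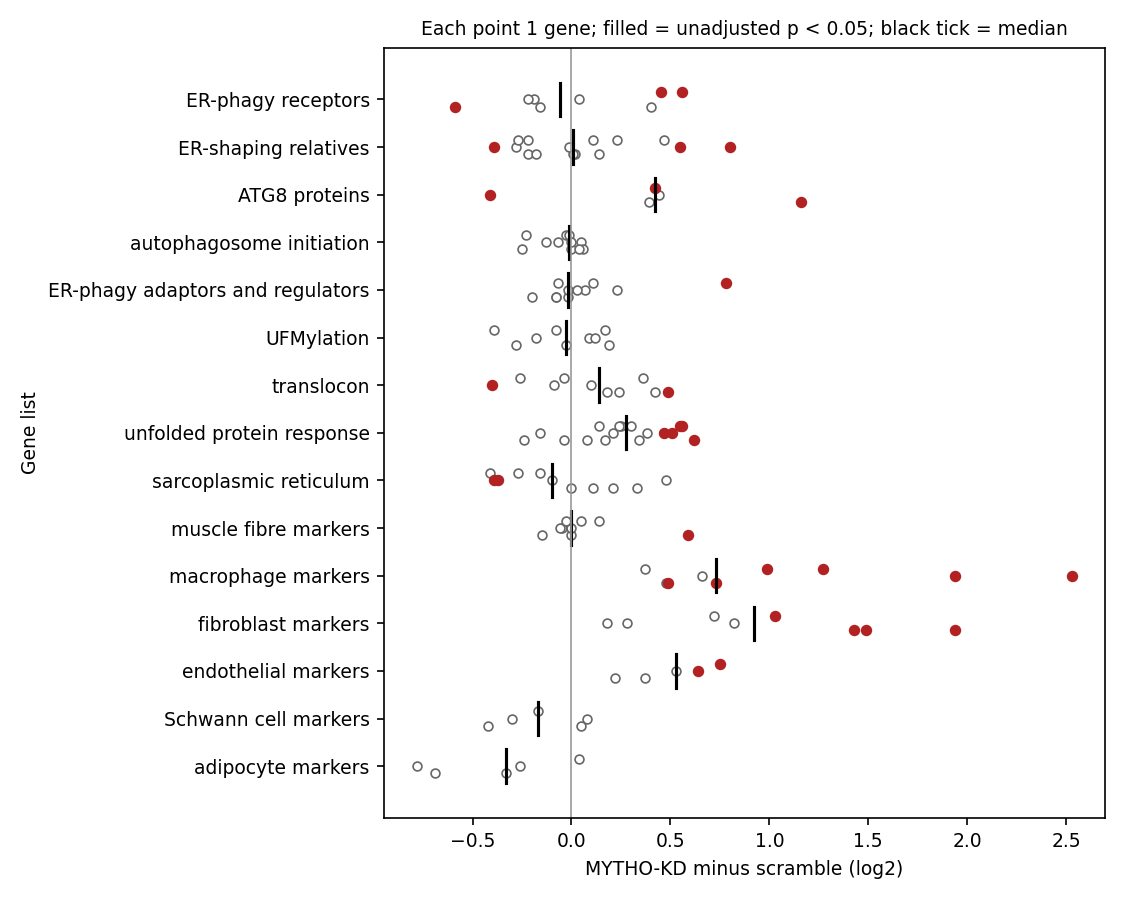
MYTHO-KD minus scramble on the log2 scale (x axis) for every gene of the receptor list, the 8 related lists and the 6 lists of cell type markers (y axis); each point is 1 gene, filled where the unadjusted p is under 0.05, and the black tick is the list's median. The receptors spread to either side of 0, from -0.59 to 0.56, whereas the macrophage, fibroblast and endothelial markers all lie above it.

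The promoters of the receptors were read for the sequence CACGTG, the core of the CLEAR element that the lysosomal and autophagy regulators TFEB and TFE3 bind. RefSeq (GRCm38.p6) gives 12 start sites for the 8 genes, 4 of them for *Fam134b* and 2 for *Tex264*, and each window holds 250 bases before and 50 after the start. The array has 1 probe set for *Fam134b* and does not separate transcripts from its different starts. CACGTG, which reads the same on either strand, was in 3 of the 12 windows, those of *Fam134a*, of *Sec62* and of 1 start of *Fam134b*, and in 7.15% of 32851 windows of all genes. The stretches around it are shown beside the differences of their genes, which were 0.45 for *Fam134a*, -0.16 for *Sec62*, which did not pass, and -0.59 for *Fam134b*. The capitals mark CACGTG, and each stretch is on the plus strand, as are the genes.
*Fam134a*, chr1:75142696-75142755: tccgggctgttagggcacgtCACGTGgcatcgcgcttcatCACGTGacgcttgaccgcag
*Sec62*, chr3:30792814-30792873: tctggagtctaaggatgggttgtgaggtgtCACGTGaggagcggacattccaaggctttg
*Fam134b*, chr15:25942464-25942523: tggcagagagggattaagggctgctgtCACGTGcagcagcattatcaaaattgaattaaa
In *Fam134a* the sequence starts 70 and 50 bases before the start of the gene, in *Sec62* 32 bases before it. In *Fam134b* it starts 188 bases before a start site inside the gene. The forkhead sequence GTAAACA, searched on both strands, was in the window of *Fam134a* alone and in 3.65% of all windows. TGACGTG, the core of an unfolded protein response element, was also in that window alone, on the minus strand, where it overlaps the first CACGTG, and in 2.01% of all windows. The transcripts of the factors themselves, named after their values were seen, did not pass. *Tfeb* had a difference of -0.07 (adjusted p = 0.921) and *Tfe3* of -0.02 (adjusted p = 0.984). These are transcript levels, and the activity of the proteins was not measured by the arrays.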

How the data were processed

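Total RNA of GAS muscle was hybridized to Clariom S Mouse arrays, 4 per group. Per the methods, the authors normalized the signals (SST-RMA) and summarized them with the Transcriptome Analysis Console at its default settings. Submitters' processing notes also name Affymetrix Expression Console, RMA and mm10. Deposited values used here are the authors' log2 average and SD of each group. The authors' fold changes, p-values and false discovery rates, also deposited, were not used, and 0 columns of single arrays were left unused.

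From averages and SDs, limma 3.58.1 (R 4.3.3) gave moderated tests over all 22206 probe sets (squeezeVar, prior SD 0.284, prior df 5.847 beside 6 residual df), two-sided, with Benjamini-Hochberg adjustment. Whether the averages are plain means is not stated; p-values rest on their being so. On simulated independent arrays, the computation from plain means gave the p-values of limma run on those arrays. This checks the arithmetic and does not cover paired legs. Genes were matched by symbol, older symbol or RefSeq accession (139 of 139); with several probe sets, that with the highest mean was used.

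All 8 receptors are named, then up to 4 members per list with the largest differences among those at an unadjusted p under 0.05, or else the largest. *Manf*, *Atp2a1*, the other reticulons and atlastins, *Tfeb* and *Tfe3* were named outside this rule, after their values were seen. So were *Hspa5*, *Ddit3*, *Xbp1*, *Atf4*, *Trib3*, *Herpud1*, *Dcn* and *Fabp4*. The members and lists were chosen with earlier results of these data known. Alternatives were other variance models, leaving out dim probe sets (those whose mean was below the 30th percentile, 5.715), 1 probe set per symbol (21981 left), a 1.5-fold threshold and, added after seeing the data, the least favourable rounding. Each receptor had 1 probe set, so no other could be tried.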

Additional observations from a re-analysis of the deposited data

How the results depend on the processing

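The difference of *Fam134a* (0.45) did not pass an unadjusted p of 0.05 without moderation of the variance (0.45), with a trend and robust fitting (0.45), with unequal variances (0.45) or with the least favourable rounding (0.44). That of *Fam134b* (-0.59) did not pass without moderation (-0.59) or with unequal variances (-0.59). The number of receptors higher was accordingly 1 in place of 2 under those 4 settings, and the number lower 0 in place of 1 without moderation and with unequal variances. At 1.5-fold in place of 2-fold, 1 receptor was called (*Fam134b*), as the limit is wider. *Rtn3* and the 5 receptors that did not pass kept their side of the threshold in each setting run, and no difference changed sign. Over the 8 other lists, 7 genes in place of 11 were higher with unequal variances, and 3 in place of 5 were lower with the least favourable rounding; for both, the cause was not tested. Of the 16 genes of these lists that passed, *Map1lc3b*, *Pdia4*, *Reep3* and *Tram1* did not pass without moderation, these 4 with *Gabarapl2* and *Manf* did not with unequal variances, and *Map1lc3b*, *Gabarapl2* and *Ryr1* did not with the least favourable rounding. The rest of them passed 0.05 in all settings: *Map1lc3a*, *Reep6*, *Canx*, *Hyou1*, *Edem1*, *Dnajc3*, *Lnpk*, *Sec61a2* and *Trdn*.

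No paired analysis was possible because the table analysed holds group averages and no values of single arrays; for the same reason no array could be left out. Signals at the top of the scale, such as *Atp2a1* at 19.93 in either group, can hide a rise or a fall. Receptor differences under about 0.33 to 0.51 (log2, by gene) could not pass in the moderated test.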

Other observations

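The sarcoplasmic reticulum, the specialised ER of muscle, was described by 11 further genes. Of these, 2 were lower in MYTHO-KD at an unadjusted p under 0.05 and none was higher, against 5.52% and 6.48% of all probe sets. *Ryr1*, the calcium release channel, averaged 16.73 in scramble and 16.34 in MYTHO-KD (difference -0.39, adjusted p = 0.408 in limma's moderated test), and did not pass the unadjusted threshold with the least favourable rounding. *Trdn*, which encodes triadin, a protein that anchors calsequestrin at the channel, averaged 18.54 and 18.17 (difference -0.37, adjusted p = 0.364). *Atp2a1*, the calcium pump of fast fibres, named after its values were seen, was at 19.93 in both groups, the top of the scale, where no rise could be seen. The median difference of the 11 genes was -0.1.

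*Rtn3* and *Atl3*, the 2 receptors on chromosome 19, are neighbours. RefSeq (GRCm38.p6) places them head to head with 10723 bases and 1 other gene model (*Gm52401*) between them. The differences of the pair were 0.56 and 0.40, of which the first passed the unadjusted threshold.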
